A study of Mus musculus with 6 samples.

Results

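The interferon-stimulated genes described here are 38 mouse genes taken from a fixed list of names, each matched to its Entrez identifier and read from the counts of all 6 libraries, among 36528 identifiers in all. RNA was sequenced from hair follicle stem cells sorted from skin as positive for CD49f and CD34 and negative for GFP. Every mouse carried the Lgr5-DTReGFP allele, which places the diphtheria toxin receptor and eGFP under the control of Lgr5, a gene of the lower follicle, so that diphtheria toxin (DT) kills cells that express it. One group of 3 libraries came from mice given saline and the other group of 3 from mice given DT. The saline mice carried the same allele, and no group lacking the receptor and given DT is among the samples. The labels leave out the DT dose, the time from DT to collection, the age of the mice and any pooling of animals. They also name no animal for a library, so each p-value rests on library-to-library spread that could be technical.

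Interferons are secreted proteins that warn cells of infection or damage. Type I and type III interferons act through receptors whose kinases JAK1 and TYK2 activate STAT proteins, among them STAT2, which joins IRF9 to bind the interferon-stimulated response element (ISRE) in target promoters. Interferon gamma acts mainly through the gamma-activated site (GAS), and one of its targets is Irf1, itself a transcription factor and also a known target of NF-kappaB. The products of the target genes sense viral RNA, block translation, trap virus particles or restrain the signal, and keratinocytes are known to respond to both kinds of interferon.

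Libraries held 15300755 to 25558859 reads in genes. Cd34 and Itga6, which encodes CD49f, did not pass the test between groups (adjusted p = 0.264 and 0.16), and the bulge keratin Krt15 was at 23918 CPM or more in every library, CPM being the count scaled to a common library size. Of the other keratinocyte markers, Krt14, a basal keratin, rose from 2281, 2499 and 2930.5 CPM in saline libraries 1 to 3 to 8355, 9365 and 8703 CPM in DT libraries 1 to 3 (log2 1.78, adjusted p = 5.16e-05), and Krt5 did not pass (adjusted p = 0.195). Lgr5, where the receptor is carried, was at 17.3, 31.6 and 23.2 CPM in saline libraries 1 to 3 and at 7.07, 6.98 and 7.26 CPM in DT libraries 1 to 3. This fall (log2 -1.76, edgeR adjusted p = 0.000864) passed without any 1 library. Of the 15132 genes tested, 2600 were higher in DT (17.2%) and 1795 lower (11.9%), by edgeR's quasi-likelihood test at a Benjamini-Hochberg adjusted p under 0.05. Scaling by library size only, in place of TMM, gave 2099 higher and 2317 lower and moved the median log2 difference over the whole table from -0.01 to -0.11, with the same 8 and 2 interferon-stimulated genes as below. In bulk samples, fewer cells of a type and less RNA per cell cannot be told apart.

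Of the 38 genes, 30 had enough reads to be tested, 8 of them rose in DT (26.7%, against 17.2% of all genes tested) and 2 fell (6.67%, against 11.9%). Those that rose were Irf1, Gbp2, Ifitm3, Ifit1, Ifit2, Ddx58, Oasl2 and Isg15, by 2.17-fold to 4.44-fold. Those that fell were Usp18, which restrains the type I interferon receptor, and Stat2, the transcription factor of that receptor. The other 20 did not pass, and 8 stayed under the filter on low counts. The median log2 fold change of the 30 was 0.35, against -0.01 for all genes tested, and it was 0.17 without DT library 1 and 0.23 without saline library 1. These shares and medians describe the list, and no test of the list was made. A gene can pass the filter through 1 group alone, and the members were chosen with earlier results of these data known.

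The promoters of these genes were searched for the letters of the known interferon motifs ISRE and GAS. Stretches before the annotated RefSeq start are printed for Irf1, Gbp2, Ifit1 and Isg15, which rose, and for Stat2, which fell. They are also printed for Rsad2 and Ifit3, which had few reads, and for Gbp3, the neighbour of Gbp2. Matches in Ddx58 and Ifitm3 lie after the annotated start and are not printed, nor is the GAS of Ifit2. RefSeq promoter windows of GRCm38.p6, from 250 bases before to 50 bases after an annotated start, were found for 30 of the 38 genes. The ISRE core, GAAA and GAAA with any 2 bases between them on either strand, was in the windows of 15 of these 30 genes (50%), against 3.99% of the 27025 genes with a window. The GAS letters TTCNNNGAA, on either strand, were in those of 8 (26.7%), against 9.55%. In Bst2 and Ifitm3 matches of the GAS and the ISRE overlapped. Capitals mark every match, and each line is read 5′ to 3′ on the strand of the gene.
Irf1, chr11:53769912-53769944, plus strand, GAS: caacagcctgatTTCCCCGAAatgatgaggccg
Gbp2, chr3:142620592-142620625, plus strand, ISRE: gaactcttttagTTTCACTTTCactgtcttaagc
Gbp3, chr3:142559987-142560026, plus strand, overlapping ISREs: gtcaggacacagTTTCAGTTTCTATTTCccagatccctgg
Ifit1, chr19:34640773-34640825, plus strand, a pair of ISREs: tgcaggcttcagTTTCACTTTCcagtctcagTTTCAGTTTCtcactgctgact
Ifit3, chr19:34583361-34583428, plus strand, a pair of ISREs: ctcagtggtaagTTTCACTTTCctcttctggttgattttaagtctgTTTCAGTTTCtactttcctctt
Isg15, chr4:156200863-156200908, minus strand, overlapping ISREs: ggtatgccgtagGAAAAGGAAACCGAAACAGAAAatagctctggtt
Stat2, chr10:128270264-128270297, plus strand, ISRE: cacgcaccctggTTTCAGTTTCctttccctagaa
Rsad2, chr12:26456551-26456584, minus strand, ISRE: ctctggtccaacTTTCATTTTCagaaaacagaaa

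The ISRE core was held by 5 of the 8 genes that rose (Ddx58, Gbp2, Ifit1, Ifitm3 and Isg15), by Stat2, which fell, and by 6 of the 16 tested genes with a window that did not pass. Of the 34 bases printed for Gbp2, 24 lie in an annotated exon of Gbp2 in GENCODE M21, as does 1 base of the Gbp3 stretch in an exon of Gbp3. The stretch printed for Ifit3 was identical in Ifit3b, where it lies at chr19:34607757-34607824. The GAS was in the windows of Irf1, Ifit2 and Ifitm3 among the genes that rose, 90 bases before the start in Irf1. A match is a description of letters and not a shown binding site. A window without a match does not show that the gene lacks the motif, since only these letters and windows were searched. Usp18, Zbp1, Oas2, Parp9, Parp14, Mx1, Mx2 and Ifi27 had no window.

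**Figure D1:**
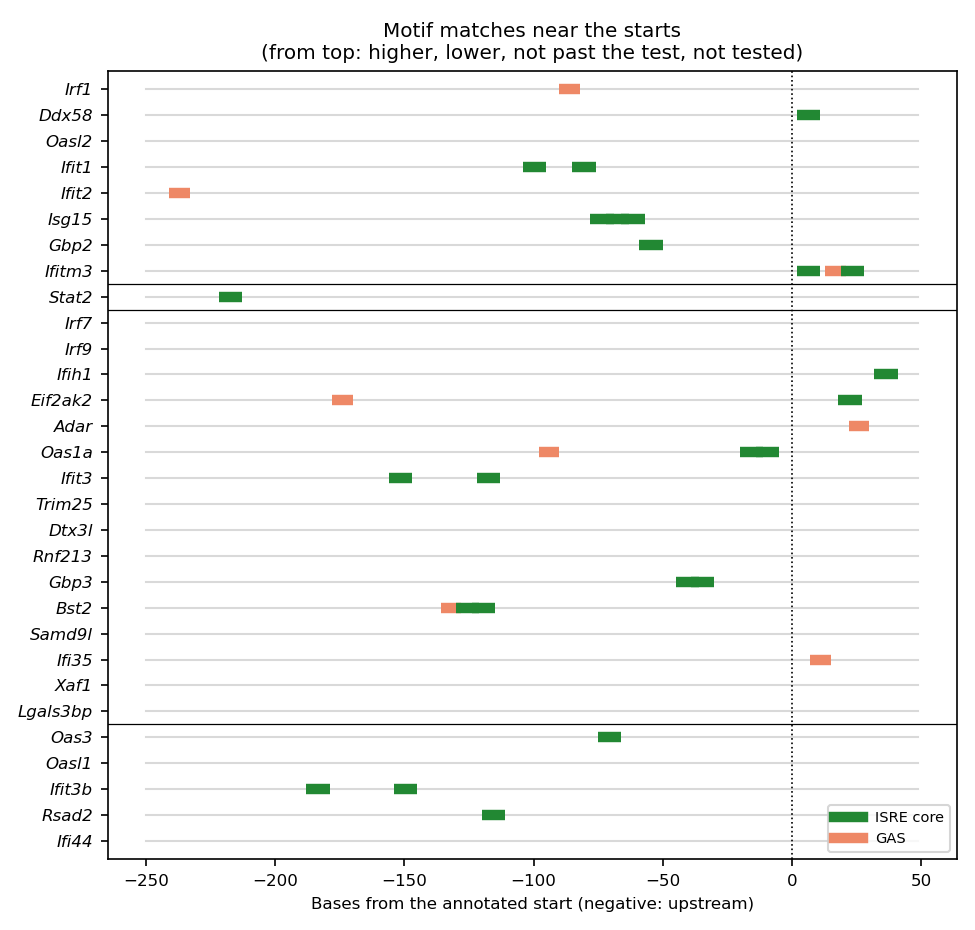
Position of each ISRE core (green) and GAS (orange) match in the windows of 30 interferon-stimulated genes, in bases from the annotated start (dotted line), with genes grouped by their call in DT against saline. Matches stand among the genes that rose, the gene that fell, those that did not pass and those not tested.

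The transcription factors of the pathway moved apart. Irf1 (Entrez 16362, chromosome 11 from 53770014 to 53778374 in GRCm38), an activator of guanylate-binding protein and antigen presentation genes, was at 43.9, 55.5 and 56.7 CPM in saline libraries 1 to 3 and at 242, 183 and 269 CPM in DT libraries 1 to 3. Every DT library was more than 3 times above the highest saline library. This rise had the smallest adjusted p of the 38 genes (log2 2.15, SE 0.18, adjusted p = 5.75e-05), and it was 2.09 in the larger of the submitters' series of sample identifiers and 2.24 in the smaller. Stat2 (Entrez 20847, chromosome 10 from 128270498 to 128292853) was at 29.4, 31.1 and 29 CPM in saline and at 24, 17.5 and 19.1 CPM in DT. The groups did not overlap, and the fall was small (log2 -0.56, SE 0.17, adjusted p = 0.0367). Leaving out saline library 2, saline library 3, DT library 2 or DT library 3 ended the call of Stat2 (adjusted p 0.0719 to 0.119).

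Irf9, the DNA-binding partner of STAT2, was at 34.2, 46.9 and 51.5 CPM in saline and at 57.7, 37.2 and 45.3 CPM in DT, and the groups overlapped (log2 0.08, adjusted p = 0.792). Irf7, the factor that amplifies type I interferon production, was at 8.24, 9.43 and 10.9 CPM in saline and at 17.4, 7.98 and 9.57 CPM in DT. Only DT library 1 stood above the saline libraries (log2 0.30, adjusted p = 0.489).

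**Figure D2:**
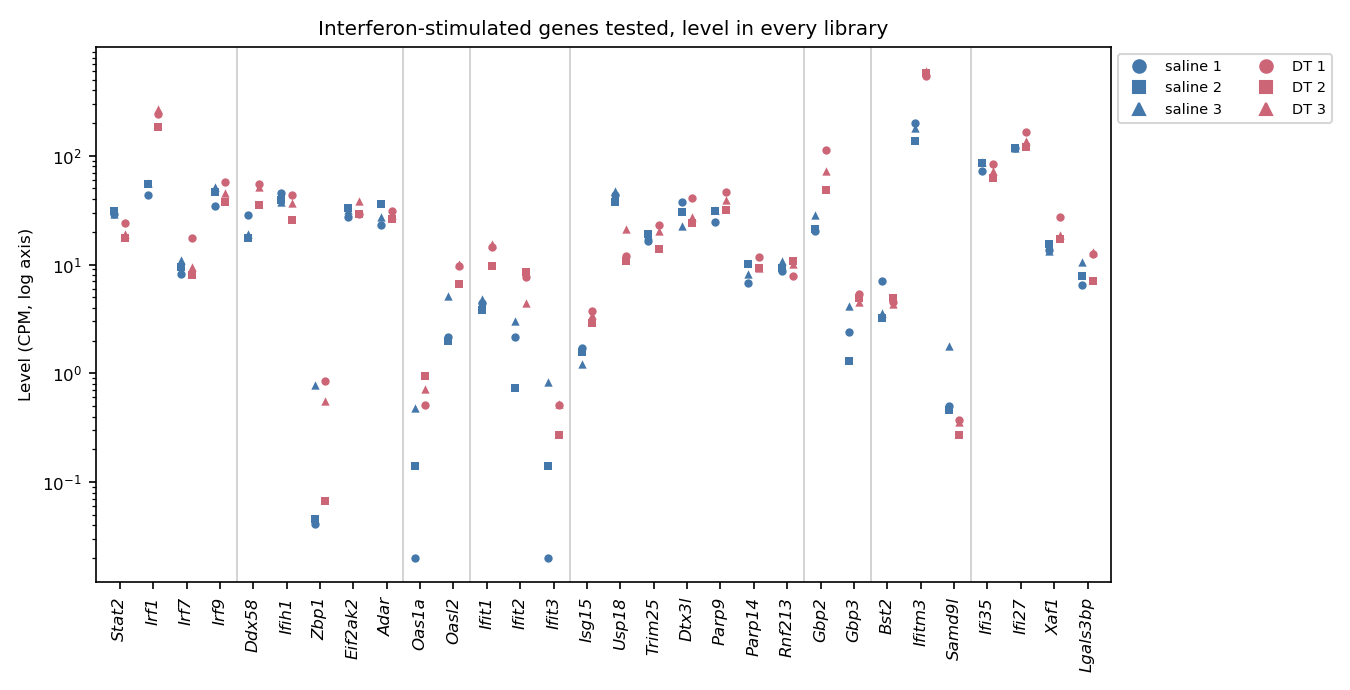
Level of the 30 interferon-stimulated genes tested in each library, in CPM on a log axis, with vertical lines between roles and a level under 0.02 CPM drawn at 0.02. Irf1, Gbp2 and Ifitm3 are higher in every DT library than in any saline library, Usp18 is lower in all of them, and most others overlap.

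Among sensors of nucleic acid, Ddx58 rose. It encodes RIG-I, a cytosolic helicase that recognises viral RNA ends (Entrez 230073, chromosome 4 from 40203777 to 40239825). It was at 28.8, 17.7 and 19 CPM in saline and at 54.6, 35.4 and 51.7 CPM in DT. The groups were separate (log2 1.11, SE 0.23, adjusted p = 0.00679), and the log2 fold change was 0.95 in the larger identifier series, where it did not pass (adjusted p = 0.0909), and 1.42 in the smaller. Ifih1, which encodes the related sensor MDA5, was at 37.8 to 45.9 CPM with saline and 25.8 to 43.1 CPM with DT (log2 -0.22, adjusted p = 0.437).

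Eif2ak2, the kinase PKR that halts translation on double-stranded RNA, had a log2 fold change of 0.07 (adjusted p = 0.8). Adar, the enzyme that edits such RNA, had one of -0.01 (adjusted p = 0.978). Their levels lay between 22.9 and 38 CPM in all 6 libraries. Zbp1, a sensor of Z-form nucleic acid that can trigger cell death, had 20 reads in the 3 saline libraries and 33 in the 3 DT libraries, and its groups overlapped.

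Of the 5 listed genes of the 2′-5′ oligoadenylate synthetase family, whose active enzymes make the messenger that switches on RNase L, all but Oasl2 had few counted reads. Oasl2 (Entrez 23962, chromosome 5 from 114896926 to 114912245) was at 2.15, 1.99 and 5.12 CPM in saline and at 9.79, 6.64 and 10.2 CPM in DT (log2 1.53, SE 0.39, adjusted p = 0.016). Saline library 3 was nearest to the DT libraries, and the call was lost without saline library 2 (adjusted p = 0.0593) or DT library 3 (adjusted p = 0.0656). Its neighbour Oasl1, which is known to restrain translation of Irf7, had 0 reads in each saline library and 11, 6 and 5 reads in the DT libraries. With 3 counts taken for the whole saline group, the 22 DT reads of Oasl1 came to an 8.23-fold higher level. The counting error of those DT reads was not included. It stayed under the filter on low counts.

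Oas1a was at 0, 0.139 and 0.477 CPM in saline and at 0.515, 0.939 and 0.718 CPM in DT (log2 1.78, SE 0.93, adjusted p = 0.178). Its DT libraries all lay above its saline libraries, with at most 18 reads in any of them. Oas2 had 8 reads in the saline group and 1 in the DT group, and Oas3 had 13 and 7. Oas1a shares 97.5% of 1860 aligned transcript bases with Oas1g, and only reads with 1 alignment were counted, so its count is uncertain.

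In the IFIT family of RNA-binding proteins, which sits in 1 cluster on chromosome 19, Ifit1 and Ifit2 rose. Ifit1, which binds viral RNA caps (Entrez 15957, from 34640889 to 34650009), was at 4.39, 3.84 and 4.77 CPM in saline and at 14.4, 9.59 and 15.6 CPM in DT (log2 1.61, SE 0.26, adjusted p = 0.00187). The saline libraries of Ifit1 lay close together, and all DT libraries were above them. Ifit2 (Entrez 15958, from 34550550 to 34576534) was at 2.15, 0.739 and 3.04 CPM in saline and at 7.68, 8.52 and 4.43 CPM in DT (log2 1.79, SE 0.47, adjusted p = 0.0191). DT library 3 was closest to saline, and the call was lost without DT library 2 (adjusted p = 0.0815). The log2 fold change of Ifit2 was 2.47 in the larger identifier series and 0.48 in the smaller, while that of Ifit1 was 1.54 and 1.61.

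Ifit3 and Ifit3b, which lie between Ifit2 and Ifit1, had few reads. Ifit3 had 22 reads in the saline group and 28 in the DT group (log2 0.45, SE 1.03, adjusted p = 0.769), and Ifit3b had 19 and 8. The longest transcripts of Ifit3 and Ifit3b are 97.8% identical over 1700 aligned bases. Counting only reads with a single alignment may therefore undercount both, which was not tested. Their levels cannot be set against those of Ifit1.

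Within the ISG15 system the modifier and its protease moved in opposite directions. Isg15, a ubiquitin-like protein attached to other proteins (Entrez 100038882, chromosome 4 from 156199424 to 156200818), was at 1.7, 1.57 and 1.21 CPM in saline and at 3.75, 2.88 and 3.47 CPM in DT. The groups were separate (log2 1.17, SE 0.35, adjusted p = 0.0316), but the call held only when saline library 1 was left out or no library was, and the adjusted p was 0.0686 to 0.12 without any other library. Usp18, which removes ISG15 and also blocks the type I interferon receptor (Entrez 24110, chromosome 6 from 121245906 to 121270917), was at 44, 37.3 and 47.9 CPM in saline. In DT it was at 12.1, 10.7 and 21.3 CPM, so that each DT library was below each saline library. This 2.92-fold fall (log2 -1.55, SE 0.26, adjusted p = 0.00218) passed without any 1 library, with log2 fold changes of -1.95 to -1.39, and was -1.83 in the larger identifier series and -1.15 in the smaller.

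Ube2l6 and Uba7, which are among the enzymes that conjugate ISG15, were not among the 38 genes. Ube2l6 was at 40 ± 4.52 CPM with saline and 59.8 ± 7.97 CPM with DT (SD, n = 3; log2 0.58, edgeR adjusted p = 0.0212), a call lost without saline library 1 or 2 or DT library 3. Uba7 ranged over 2.07 to 4.51 CPM in saline libraries and 3.35 to 5.06 CPM in DT libraries, which overlap (adjusted p = 0.263). Both were chosen for mention after their values were seen.

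The ubiquitin ligases and ADP-ribosyltransferases of the list did not pass. Trim25, the ligase that activates RIG-I, had a log2 fold change of 0.08 (adjusted p = 0.797), and the giant ligase Rnf213 one of 0.00 (adjusted p = 0.991). Parp9 and Dtx3l, which form a complex and overlap on chromosome 16, had log2 fold changes of 0.41 (adjusted p = 0.124) and 0.04 (adjusted p = 0.919), and Parp14, in the same region, one of 0.27 (adjusted p = 0.424). Whether counting used strand is not given in the sources used here, so reads where Parp9 and Dtx3l overlap cannot be assigned to one of them.

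**Figure D3:**
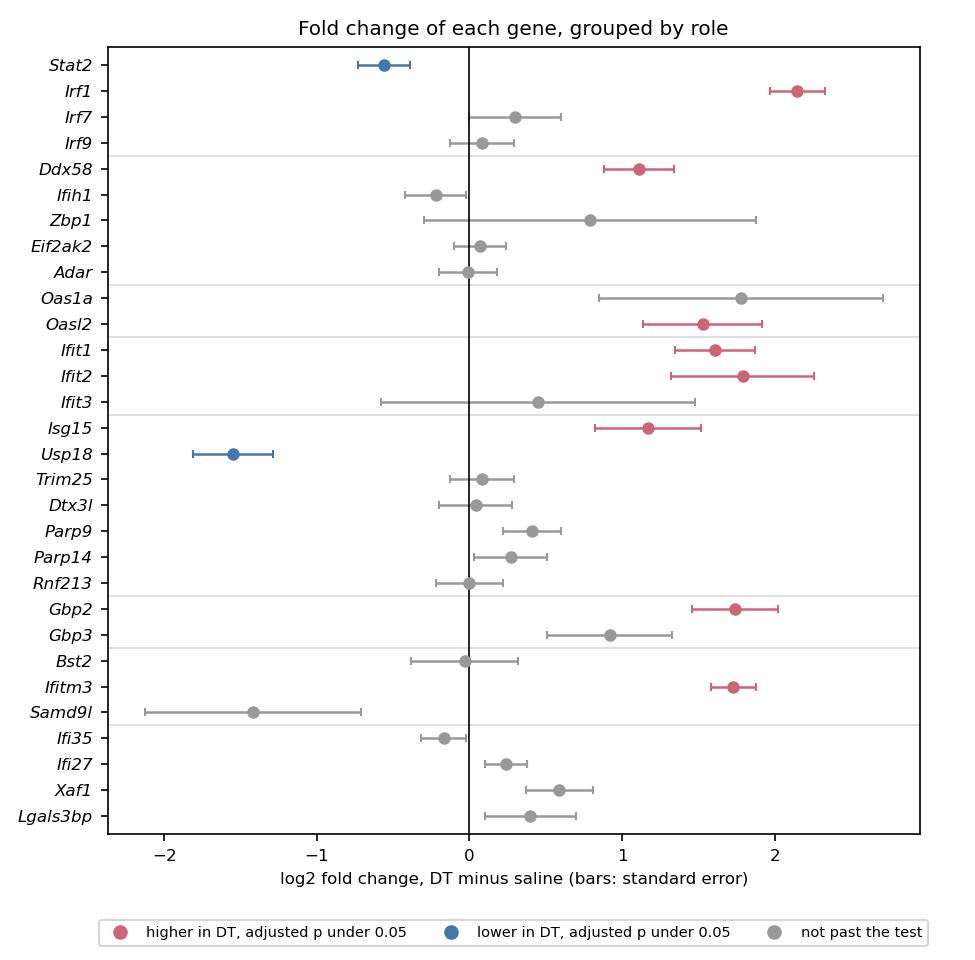
Log2 fold change, DT minus saline, of each of the 30 genes tested, with its standard error as the bar and grey lines between roles. The 8 genes that rose lie between 1.11 and 2.15, Usp18 lies at -1.55 and Stat2 at -0.56.

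Of the interferon-induced GTPases, Gbp2 rose and the Mx genes had few counted reads. Gbp2, a guanylate-binding protein that attacks the membranes around intracellular microbes (Entrez 14469, chromosome 3 from 142620663 to 142638008), was at 20.5, 21.3 and 28.3 CPM in saline and at 113, 48.8 and 72.6 CPM in DT. DT library 1 was the highest, and the lowest DT library was still above all saline libraries (log2 1.74, SE 0.28, adjusted p = 0.00179). Its log2 fold change was 1.96 in the larger identifier series and 1.34 in the smaller. Gbp3, its neighbour, was at 2.4, 1.29 and 4.12 CPM in saline and at 5.34, 4.96 and 4.55 CPM in DT. The groups of Gbp3 were separate by a small margin and it did not pass (log2 0.92, SE 0.41, adjusted p = 0.114), though it did without saline library 3 (adjusted p = 0.0329). Mx1, the dynamin-like restriction factor, had 0 reads in saline and 2 in DT, both in DT library 3. Mx2 had 17 reads in the saline group and 22 in the DT group. Mx1 and Mx2 share 94.8% of 920 aligned transcript bases, so their counts are uncertain.

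Ifitm3, a membrane protein that blocks the fusion of viruses in endosomes (Entrez 66141, chromosome 7 from 141009590 to 141010744), had the highest level per length of the 38 genes in both groups. It was at 199, 138 and 179 CPM in saline and at 541, 571 and 597 CPM in DT, with all DT libraries far above all saline libraries. This rise passed without any 1 library (log2 1.73, SE 0.15, adjusted p = 7.85e-05), and was 1.72 in the larger identifier series and 1.74 in the smaller. Of its relatives on chromosome 7, Ifitm2 ranged over 240.5 to 295 CPM in saline and 279 to 306 CPM in DT, and the groups overlapped (log2 0.15, adjusted p = 0.397). The difference between Ifitm3 and Ifitm2 was not tested. Ifitm1 was under 1 CPM in every library.

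The other antiviral effectors had no call. Bst2, or tetherin, which holds virus particles at the cell surface, was at 7.12, 3.23 and 3.56 CPM in saline and at 4.5, 4.9 and 4.31 CPM in DT (log2 -0.03, adjusted p = 0.962). Samd9l, an inhibitor of translation, was at 0.497, 0.462 and 1.78 CPM in saline and at 0.375, 0.268 and 0.359 CPM in DT. All DT libraries were below the saline libraries without a call (log2 -1.42, SE 0.71, adjusted p = 0.158). Rsad2, or viperin, which makes a chain-terminating nucleotide, had 31, 7 and 5 reads in saline libraries 1 to 3 and 0, 1 and 3 in DT libraries 1 to 3. These counts were under the filter, and most of them came from saline library 1.

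Of the remaining 4 genes tested, 0 passed in edgeR, 1 was at an unadjusted p under 0.05 (Xaf1), and limma-voom called 0. Ifi27 was at 119 CPM in each saline library and at 164, 121 and 138 CPM in DT (log2 0.24, adjusted p = 0.214). Its annotated span lies inside that of Ifi27l2a (mean 6.9 CPM in saline and 12.5 CPM in DT). How reads in that overlap were counted is not known. Ifi35, a partner of Nmi, was at 82.1 ± 8.21 CPM with saline and 72.9 ± 10.6 CPM with DT (SD, n = 3; log2 -0.17, edgeR adjusted p = 0.421). Xaf1, a pro-apoptotic protein, was at 13.5, 15.3 and 13.2 CPM in saline and at 27.5, 17.2 and 18.7 CPM in DT. Every DT library of Xaf1 was above every saline library, but it did not pass (log2 0.59, SE 0.22, adjusted p = 0.0642), whereas DESeq2 called it, as the only 1 of these 4. Lgals3bp, a secreted glycoprotein, had a log2 fold change of 0.40 (adjusted p = 0.344). Ifi44 had 6 reads in saline and 9 in DT.

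Levels between genes were compared per length, with the RPKM that the authors adjusted by a size factor. In saline Ifitm3 was highest, at 249.7 ± 45.4 RPKM, followed by Ifi27 at 86.9 ± 0.382, Ifi35 at 56.8 ± 5.72 and Usp18 at 22.9 ± 2.9 RPKM (SD, n = 3). Irf9 at 15.5 ± 3.15 and Irf1 at 14.2 ± 1.95 RPKM came next and did not differ beyond their spread. In DT the order after Ifitm3 (829.6 ± 53.1 RPKM) was Ifi27 at 103 ± 13.8, Irf1 at 63.3 ± 11.7, Ifi35 at 50.4 ± 6.38 and Gbp2 at 29.1 ± 11.5 RPKM, where Irf1 and Ifi35 lay about 1 SD apart. Usp18 stood at 7.82 ± 3.1 RPKM there, beside Ddx58 at 8.99 ± 1.84. In saline Usp18 was thus among the most abundant of the 38 genes per length, while the genes Rsad2, Oas2, Oas3 and Mx1, which are strong interferon targets in many cells, were at or under 0.123 RPKM.

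**Figure D4:**
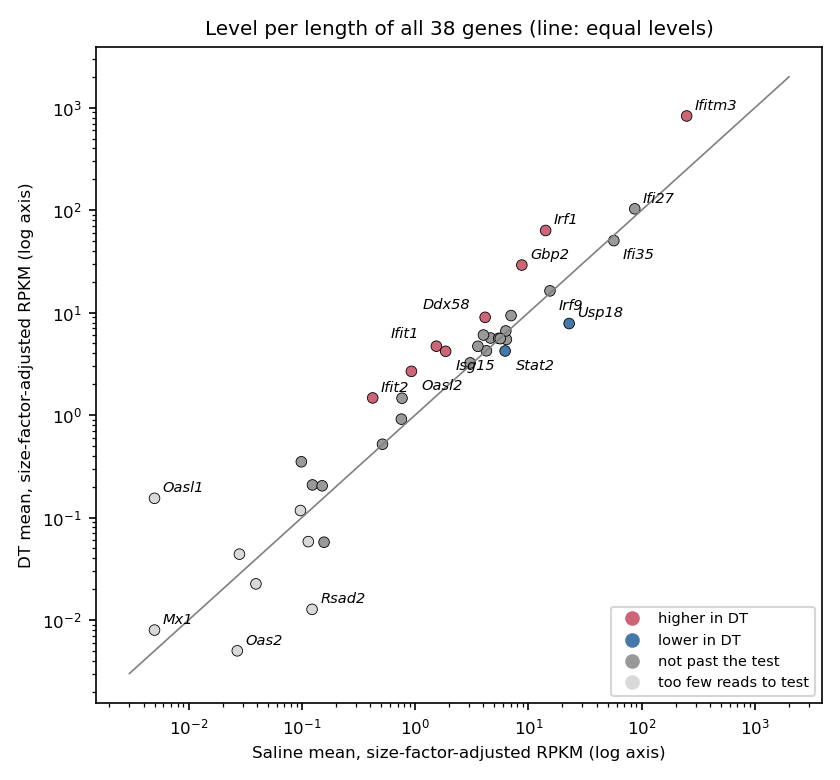
Mean size-factor-adjusted RPKM of all 38 genes in the 3 DT libraries against the 3 saline libraries, on log axes, with means under 0.005 drawn at 0.005 and the line marking equal levels. Ifitm3, Irf1 and Gbp2 lie above the line, Usp18 lies below it, and the genes with too few reads to test sit at the lower left.

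Libraries of a group differed in the level of the list. Of the 30 genes tested, 18 were highest in DT library 1 among the DT libraries, where 38.8% of all genes tested were, and 23 were lowest in DT library 2, where 35.9% were. Saline library 3 was the highest saline library for 17 of the 30, and for 33.8% of all genes tested. On the log2(CPM + 0.5) scale, as a difference from the mean of the saline libraries, the median over the 30 genes was 0.53, 0.07 and 0.35 in DT libraries 1 to 3, and -0.15, -0.04 and 0.13 in saline libraries 1 to 3. The saline and DT medians of the list therefore overlapped, at 0.13 in saline library 3 and 0.07 in DT library 2. All 3 DT libraries lay above all saline libraries for 12 of the 30 genes (25.4% of all genes tested did) and below them for 3 (20.5%).

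Counted reads of the interferon genes themselves were almost absent. Of 21 interferon genes, 16 had 0 reads in every library. The other 5, Ifnb1, Ifnab, Ifnk, Ifnz and Ifng, had 1 read together in the saline group and 10 in the DT group, with at most 3 in any library. Of these, interferon beta (Ifnb1) had 3 reads, all in DT library 3, and interferon gamma (Ifng) had 3 over DT libraries 1 and 2. Each of these genes was at or under the floor of 3 counts over a group, so no difference in any of them was detectable at this depth, and interferon made by other cells of the skin was not measured.

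Receptors and their kinases were present in both groups, and 0 of 10 passed in edgeR, against 29.0% of all genes tested. Of the 10, only Il10rb was at an unadjusted p under 0.05. DESeq2 called 1 of them, Il10rb, and limma-voom called 0. Ifnar1, a subunit of the type I receptor, was at 117 to 119 CPM with saline and 96.1 to 129 CPM with DT (log2 -0.05, adjusted p = 0.815). The 4 genes of this list with the smallest p were Il10rb (log2 0.60, adjusted p = 0.0754), a subunit of the type III receptor, the kinases Jak2 (-0.51, adjusted p = 0.127) and Tyk2 (-0.46, adjusted p = 0.163), and Ifngr2 (0.65, adjusted p = 0.217), a subunit of the interferon gamma receptor. Il10rb passed without DT library 2 (adjusted p = 0.0424), Tyk2 without DT library 1 (adjusted p = 0.00499) and Ifngr2 without saline library 1 (adjusted p = 0.00497).

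Of 15 genes that sense nucleic acid or pass on its signal upstream of interferon, 12 were tested, and 2 rose (16.7%, against 17.2% of all genes tested). Tmem173, which encodes STING, the adaptor for cytosolic DNA, was at 1.2, 0.878 and 3.43 CPM in saline and at 8.57, 7.11 and 12.9 CPM in DT (log2 2.37, SE 0.48, adjusted p = 0.00581). Irf5, a transcription factor that acts below Toll-like receptors, was at 4.72, 4.21 and 5.59 CPM in saline and at 21.6, 14.8 and 17 CPM in DT (log2 1.88, SE 0.24, adjusted p = 0.000514). For both genes the DT libraries were all above the saline libraries. Ikbke (log2 0.77, adjusted p = 0.0585), a kinase that activates IRF3, and the adaptor Myd88 (0.37, adjusted p = 0.0739) did not pass in edgeR. Ikbke passed in DESeq2, and in edgeR without DT library 2 (adjusted p = 0.0316).

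Of 8 negative regulators, 7 were tested, 2 fell (28.6%, against 11.9% of all genes tested) and 1 rose (14.3%, against 17.2%). Beside Usp18, Irf2bp2, a corepressor that binds IRF2, fell from 82.8 ± 7.83 to 46.2 ± 9.36 CPM (SD, n = 3; log2 -0.84, edgeR adjusted p = 0.00538). Ptpn2, a phosphatase that acts on JAK1, rose from 81.2 ± 8.8 to 141 ± 32 CPM (log2 0.80, edgeR adjusted p = 0.00914). Socs1, the main inhibitor of interferon receptor kinases, had 1 read in the saline group and 7 in the DT group and was not tested.

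In a further list of 46 interferon-stimulated genes, 37 were tested, of which 10 rose (17.2% of all genes tested did) and Trim14 fell (11.9% did). Their median log2 fold change was 0.21, and this list too was chosen with earlier results of these data known. The chemokine Cxcl10, which draws T cells, was at 4.1, 3.84 and 8.37 CPM in saline and at 33.9, 43.2 and 57.2 CPM in DT (log2 3.04, SE 0.33, adjusted p = 0.00022). Cxcl9, its neighbour and a typical target of interferon gamma, was at 3.68, 4.07 and 5.94 CPM in saline and at 23.7, 13.1 and 16.7 CPM in DT (log2 1.96, adjusted p = 0.00124). Both were higher in 3 of 3 DT libraries than in any saline library. The proteasome activator subunits Psme1 (log2 0.74, adjusted p = 0.00166) and Psme2 (0.93, adjusted p = 0.00123) rose as well. Trim14, an adaptor of antiviral signalling, was at 1.65 to 3.4 CPM with saline and 0.877 to 1.14 CPM with DT (log2 -1.44, adjusted p = 0.0332). Its call was lost without any 1 library except saline library 3 (adjusted p 0.0566 to 0.115).

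**Figure D5:**
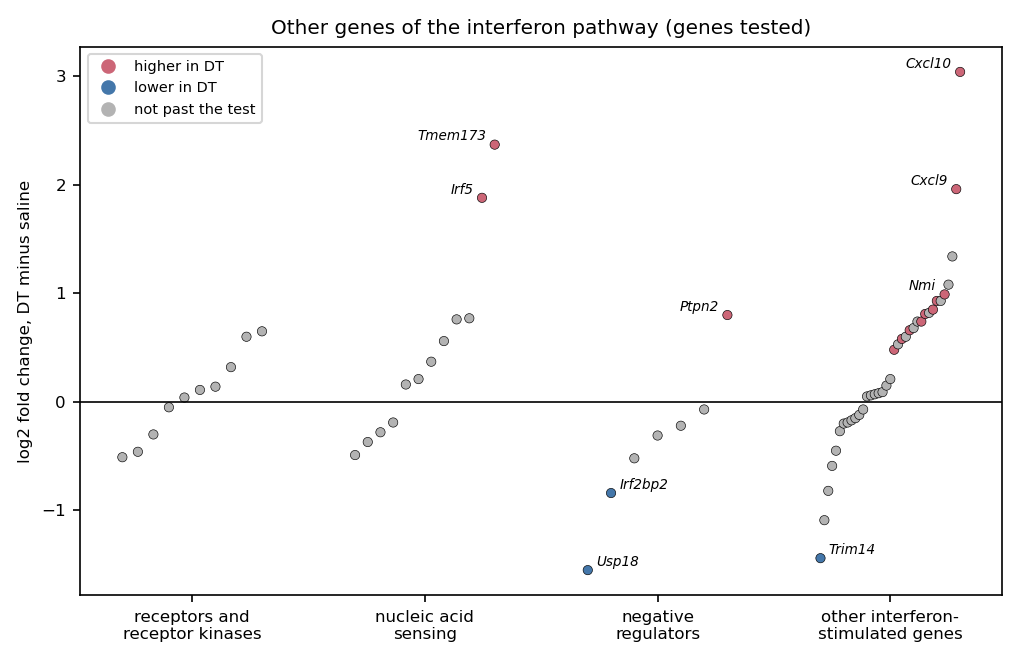
Log2 fold change, DT minus saline, of the tested genes in 4 lists of the interferon pathway, in order of size within each list. Cxcl10, Tmem173, Cxcl9 and Irf5 lie highest, and Usp18, Trim14 and Irf2bp2 are the genes that fell.

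Markers of other cell types were followed because immune cells also express these genes. The summed level of 11 leukocyte markers was 160.3 to 229.8 CPM in saline and 108 to 133 CPM in DT, most of it from Cd74. Of the 9 tested, 4 fell (44.4%, against 11.9% of all genes tested), namely Cd3e, Cd3g, Adgre1 and Cd74. Itgam alone rose (11.1%, against 17.2%), from 0, 0.555 and 0.477 CPM to 3.94, 6.24 and 1.91 CPM (log2 3.54, adjusted p = 0.0109). The calls of Itgam and Cd3e each depended on single libraries, with adjusted p up to 0.0638 for Itgam and 0.106 for Cd3e when 1 was left out. Of 4 markers of plasmacytoid dendritic cells, which make much type I interferon, Siglech and Klk1 were at 0 in all libraries and the 4 summed to at most 1.34 CPM. Summed fibroblast markers went from 23.5 to 41.3 CPM in saline to 9.46 to 16.9 CPM in DT, with Lum at 0 throughout, and Col1a2, which made up most of that sum, fell (log2 -1.22, adjusted p = 0.0079). Summed endothelial markers were at 3.42 to 22.2 and 7.64 to 11.3 CPM. Melanocyte markers summed to 99.5 to 140 CPM in saline and to 63.9 to 83.4 CPM in DT, most of it from Mitf. Of the 4 tested, 3 fell (75%, against 11.9% of all genes tested), namely Dct, Tyrp1 and Mitf. The call of Dct held without any 1 library, whereas those of Tyrp1 and Mitf depended on single libraries, with adjusted p up to 0.12 for Tyrp1 and 0.0711 for Mitf when 1 was left out. The part of these cells in the levels of the interferon-stimulated genes was not tested.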

How the data were processed

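Polyadenylated RNA from 6 sorted samples was analysed, 3 from mice given saline and 3 from mice given DT. Per the submitters' processing notes, reads were aligned with GSNAP to GRCm38. Per the file headers, the deposited counts hold reads with 1 alignment that falls in the gene model. The deposited RPKM carries an adjustment by size factor, per the file headers. Not given in the sources used here: aligner version, annotation, strand setting. Libraries were numbered within a group in record order, and equal numbers pair nothing.

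Entrez identifiers were named from RefSeq (GRCm38.p6), which matched 31049 of 36528. The test on counts used edgeR 4.0.16 (R 4.3.3) after filterByExpr (minimum count 10, minimum total 15) and TMM scaling, with the robust quasi-likelihood test, no covariates, residual degrees of freedom of 4 and a common biological variation coefficient of 0.233. Benjamini-Hochberg adjustment covered all 15132 genes tested, with a threshold of 0.05, and a positive log2 fold change means higher in DT. CPM values use TMM scaling. The counting bound for Oasl1 covers counting error in the saline group only. The test was tried on simulated counts with known changes. Within a group, no 2 libraries agreed within sampling noise (chi-square over its degrees of freedom, 19.9 to 60).

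The members and lists were chosen with earlier results of these data known. All 38 members are accounted for. Of each other pathway list the text names up to 4 genes with the smallest p, every gene past the test where 5 or fewer were, and Lgr5, Cd34, Itga6 and Krt15; other names were chosen after their values were seen. Transcript identity came from blastn on the longest coding transcripts of GENCODE M21. Alternatives were DESeq2 1.42.0 size factors, library size only, no filter, a mean count of at least 10, DESeq2, limma-voom (limma 3.58.1), identifier series or consecutive identifiers as a block, the larger identifier series alone and each library left out. After the data were seen, limma on log2(RPKM + 1) was added. The submitters' sample identifiers fall into 2 number series, the larger with 2 libraries per group and the smaller with 1, where the log2 ratio of CPM + 0.5 is given with no test.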

Additional observations from a re-analysis of the deposited data

How the results depend on the processing

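Each of the 30 genes tested was refitted under up to 16 alternatives, 475 fits in all, of which 455 stayed on their side of the threshold, 17 lost a call, 3 gained one and 0 reversed a called direction. Genes with no call and a log2 fold change near 0, such as Adar, Bst2 and Rnf213, changed sign in some fits. Irf1, Gbp2, Ifitm3, Ifit1 and Usp18 passed under every alternative run. Isg15 lost its call in 8, Stat2 in 5, Oasl2 in 2, Ifit2 in 1 and Ddx58 in 1, while Xaf1 gained one in 2 and Gbp3 in 1. With the larger identifier series alone, 6 of the genes were higher and 1 lower, 7 genes of the other pathway lists passed against 15, and 1570 genes passed in all (1097 higher, 473 lower); fewer libraries entered that fit. With each library left out in turn, 6 to 8 of the genes were higher, 1 to 2 lower, and their median log2 fold change was 0.17 to 0.49 (0.16 with limma on log2(RPKM + 1), whose pseudocount shrinks low genes). Over the same refits 9 to 17 genes of the other lists passed, and 2581 to 4871 of all genes (1564 to 2826 higher, 996 to 2045 lower); the lowest counts were 996 without DT library 2 and 1564 without DT library 3. With consecutive sample identifiers as a replicate block, 8 were higher and 2 lower, Xaf1 taking the place of Isg15; no label says that these identifiers pair libraries. The block of identifier series gave the same counts of 8 and 2. Without a filter on low counts Oasl1 passed and Isg15 did not. At 3 libraries a group and a few reads per library, changes in Mx1, Mx2, Oas2, Oas3, Ifi44 and Ifit3b could not be detected.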
